A study of Homo sapiens with 18 samples.

Results

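The 39 genes described here make the proteins that license replication origins, fire them, copy DNA at the fork and supply deoxynucleotides. They were chosen by name and kept where the mean over all 18 libraries reached 1 TPM (a measure of abundance in which reads are divided by gene length and scaled to a fixed total per library). All 39 of the 39 named genes met that level, among 14117 of 45372 gene symbols that did. The lowest mean was that of GINS3 and the highest that of PCNA.

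RNA was sequenced from MV4-11 and THP1, 2 established acute myeloid leukemia (AML) lines of monocytic type that carry rearrangements of KMT2A (KMT2A-r), a histone methyltransferase gene. Each line was treated with the vehicle DMSO, or with 50 nM IACS-010759 (IACS), an inhibitor of respiratory complex I, for 8 h or for 24 h. Each of the 6 groups held 3 libraries, described as independent replicates. Which of the times the DMSO libraries stand for is not given in the sources used here, and the same 3 DMSO libraries of a line served as the control of both. Each is a single line and they differ in many ways, so a difference between them cannot be assigned to a genotype. MV4-11 also carries an internal tandem duplication of FLT3, and the mutations listed for THP1 include NRAS; these are shared by the treated and DMSO libraries of a line.

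Before S phase, the origin recognition complex (ORC), CDC6 and CDT1 load the ring-shaped MCM helicase onto origins, a step called licensing. Kinases with cyclin E or DBF4 then turn the rings into active helicases with CDC45 and the GINS complex, and polymerases held by the sliding clamp PCNA copy both strands. Ribonucleotide reductase, thymidylate synthase and thymidine kinase feed the fork with deoxynucleotides, and many of these genes are transcribed at the G1/S boundary under E2F transcription factors. In bulk RNA, fewer cells in S phase and less RNA per cell cannot be told apart.

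Since many of these genes are known E2F targets, their promoters were searched for E2F sites. RefSeq start sites (GRCh38.p14) gave windows of 250 bases before to 50 after the start for 35 of the 39 genes, with none for CCNE2, GINS4, MCM4 and MCM5. The 4 letter strings TTTGGCGC, TTTCCCGC, TTTGCCGC and TTTCGCGC were searched on both strands, and matches may overlap. At least 1 match stood in a window of 18 of 35 genes (51.4%), against 6.80% of 9609 genes whose mean reached 1 TPM and 3.99% of all 27305 genes with a window. Licensing genes held a match in 6 of 9, firing genes in 4 of 8, fork genes in 7 of 14 and nucleotide genes in 1 of 4. The string CCAAT was found in 60% of the 35 genes, against 43.1% of the 9609. The string TTTGAA, the core of the cell cycle homology region of G2/M genes, was found in 2 of 35 (5.71%), against 13.5%. A match is a description of letters and was not tested as a site.

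The promoter windows of 4 genes on which the results below turn are shown 5′ to 3′ on the strand of the gene, with the matches to the E2F strings in capitals. PCNA had the highest level in MV4-11 (chr20:5126573-5126872, minus strand, the upstream window of its 2, 1 match at -59 from the start). MCM3 had the highest level in THP1 (chr6:52284693-52284992, minus strand, matches at -174 and -4). MCM6 was the lowest against DMSO in MV4-11 at 24 h (chr2:135876394-135876693, minus strand, 4 matches between -152 and -86, in 2 overlapping pairs). CDT1 lay above DMSO there (chr16:88803539-88803838, plus strand, 1 match at -35).
PCNA: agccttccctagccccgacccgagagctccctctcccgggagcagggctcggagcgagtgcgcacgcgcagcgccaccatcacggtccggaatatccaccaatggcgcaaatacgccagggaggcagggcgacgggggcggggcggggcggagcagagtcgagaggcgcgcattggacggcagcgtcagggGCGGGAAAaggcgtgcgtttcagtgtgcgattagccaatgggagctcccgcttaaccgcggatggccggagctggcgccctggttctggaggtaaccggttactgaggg
MCM3: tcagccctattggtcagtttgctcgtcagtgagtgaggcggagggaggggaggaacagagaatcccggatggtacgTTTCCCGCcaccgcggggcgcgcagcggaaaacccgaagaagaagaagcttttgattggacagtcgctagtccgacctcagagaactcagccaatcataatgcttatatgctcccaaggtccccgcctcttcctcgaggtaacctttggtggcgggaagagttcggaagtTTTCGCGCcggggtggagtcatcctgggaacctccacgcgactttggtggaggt
MCM6: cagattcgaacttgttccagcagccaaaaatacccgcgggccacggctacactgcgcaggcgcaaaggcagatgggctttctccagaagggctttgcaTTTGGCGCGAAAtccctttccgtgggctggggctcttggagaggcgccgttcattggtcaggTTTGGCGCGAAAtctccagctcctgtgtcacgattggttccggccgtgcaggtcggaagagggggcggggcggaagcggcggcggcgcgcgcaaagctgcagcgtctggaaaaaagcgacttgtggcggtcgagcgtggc
CDT1: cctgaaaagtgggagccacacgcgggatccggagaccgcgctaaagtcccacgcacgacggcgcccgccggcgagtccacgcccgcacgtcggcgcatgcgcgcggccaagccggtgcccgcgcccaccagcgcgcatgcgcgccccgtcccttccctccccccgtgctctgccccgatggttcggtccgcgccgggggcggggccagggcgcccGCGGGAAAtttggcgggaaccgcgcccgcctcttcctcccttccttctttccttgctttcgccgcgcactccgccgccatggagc

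By the size of 1 read among the low values, the libraries held about 21700000 to 28500000 reads (median 24000000), and every gene of the set had at least 330 reads in every library. From 8 to 9 of 10 myeloid marker genes reached 1 TPM in each line, while T cell, erythroid and epithelial markers were near 0 and 1 of 3 B cell markers reached that level in MV4-11. In every library, 5 short noncoding RNAs (RPPH1, RMRP, RN7SK, RN7SL1 and RN7SL2) held 39.6% to 60.1% of the TPM, so that all other genes shared the rest. Levels were therefore also scaled by the median of ratios, in which each library is divided by its median ratio to the average library over 15898 genes. As deposited, the median of all genes with IACS moved by 0.06 (8 h) and 0.08 (24 h) in MV4-11 and by -0.12 at both times in THP1 (log2 fold change). Changes of the gene set are therefore also given relative to the median of all genes.

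Some libraries stood apart within their groups. In THP1, replicate 3 was the lowest library for 39 of 39 genes in all 3 groups as deposited, and for 25, 29 and 15 of 39 after scaling. In MV4-11, IACS 24 h replicate 3 had the lowest mean correlation with its replicates over all genes (r = 0.977, against up to 0.993 in other libraries). The genes of the set summed to 2930 TPM in it and to 2377 and 2302 TPM in replicates 1 and 2. The median coefficient of variation of the 39 genes after scaling was 16.5% in that group and 4.89% to 7.67% in the other 5. Results that rest on these libraries are given with and without them.

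The first question was how the replication genes differ between the untreated lines. THP1 expressed more MCM3, CDC7, CCNE2, TYMS, TK1 and GINS1 and less PCNA, LIG1 and UHRF1 than MV4-11. Thus 2 of 4 nucleotide genes and 3 of 10 firing genes were higher in THP1 and 3 of 14 fork genes were lower, while of the 11 licensing genes MCM3 alone was called. The test was limma on log2(TPM + 1) with all 18 libraries, and a gene was called where its p, adjusted over all genes by Benjamini-Hochberg, was under 0.05 and it differed by more than 1.5-fold. Under this rule 9 of the 39 genes were called, 6 higher and 3 lower in THP1. The lines differed in 36.9% of all 14117 genes, so the share in the set was below the background. The uncalled genes ran from -0.58 (RRM2) to 0.45 (CDC6) on the log2 scale.

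The levels of the genes spanned a wide range, and TPM allow them to be compared between genes. In the DMSO libraries the MCM ring subunits stood highest among licensing genes, from 94.0 TPM (MCM5) to 227 TPM (MCM7) in MV4-11 and from 73.5 TPM (MCM5) to 291 TPM (MCM3) in THP1 (means, n = 3). Their loaders stood lower, save that CDT1 exceeded MCM5 in THP1, with CDT1 at 78.3 and 77.3 TPM, ORC1 at 52.4 and 69.5, CDC6 at 25.8 and 35.9 and ORC2, below ORC6, at 14.3 and 13.2 TPM in MV4-11 and THP1. Firing genes took the smallest share of the summed TPM (8.97% in MV4-11 and 10.7% in THP1), from 9.88 TPM (GINS3) to 36.2 TPM (CDC45, a part of the active helicase) in MV4-11 and up to 49.2 TPM (CDC7) in THP1, where GINS3 was again lowest. Among fork genes, PCNA led in MV4-11 at 395 TPM, followed by UHRF1 at 168, the flap nuclease FEN1 at 131, POLD1 at 98.7 and LIG1 at 65.9 TPM. In THP1, PCNA at 134 ± 20.8 and FEN1 at 133 ± 12.1 TPM (mean ± SD) did not differ beyond their spread. The clamp loader genes RFC1 to RFC5 and the polymerase and primase genes POLA1, POLA2, PRIM1 and POLE lay together, from 25.1 to 46.8 TPM in MV4-11 and from 25.3 to 52.1 TPM in THP1. Of the nucleotide genes RRM1 had the highest mean and RRM2 the lowest in both lines, with TYMS and TK1 between. RRM1 and RRM2 stood at 94.2 and 50.2 TPM in MV4-11 and at 120 ± 17.2 and 33.7 TPM in THP1. In THP1, TYMS at 119 ± 18.8 and TK1 at 112 ± 3.51 TPM did not differ from RRM1 beyond the spread.

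PCNA, the clamp that tethers polymerases, held 398, 412 and 376 TPM in the MV4-11 DMSO libraries and 154, 136 and 113 TPM in those of THP1. The groups did not overlap, and the log2 fold change (THP1 over MV4-11) was -1.56 (SE 0.13, limma adjusted p = 1.18e-08). LIG1, which seals Okazaki fragments, held 65.9 ± 4.99 TPM in MV4-11 and 35.0 ± 4.85 TPM in THP1 (mean ± SD, n = 3), a log2 ratio of -0.90 (SE 0.14, limma adjusted p = 3.18e-05). UHRF1, which reads hemimethylated DNA behind the fork for maintenance methylation, held 168 ± 13.7 against 102 ± 19.8 TPM, a log2 ratio of -0.73 (SE 0.19, limma adjusted p = 0.00434).

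MCM3, a subunit of the MCM ring, held 144, 145 and 133 TPM in MV4-11 and 340, 303 and 230 TPM in THP1. Every THP1 library lay above every MV4-11 library, with a log2 ratio of 1.03 (SE 0.18, limma adjusted p = 7.49e-05). The 6 proteins of the ring assemble in equal numbers, but their RNAs did not stand in equal numbers. The highest of MCM2 to MCM7 over the lowest was 2.42 ± 0.10 within the MV4-11 DMSO libraries, with MCM7 on top at 227 TPM. It was 3.94 ± 0.32 in those of THP1, with MCM3 on top at 291 TPM. Of the other 5 subunits, log2 fold changes ran from -0.43 (MCM7) to -0.13 (MCM2), and none was called.

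Among the firing genes, CDC7, the kinase that acts with DBF4 on the MCM ring, had a log2 ratio of 0.72 (SE 0.20, limma adjusted p = 0.00598). DBF4 itself did not pass (-0.25), and the ratio of CDC7 to DBF4 within a library was 1.22 ± 0.01 in MV4-11 and 2.44 ± 0.12 in THP1 (DMSO, n = 3). CCNE2, an E cyclin, was higher in THP1 by 0.69 on the log2 scale (SE 0.16, limma adjusted p = 0.00159). The other E cyclin gene, CCNE1, had a value of -0.49 that was not called. The ratio of CCNE1 to CCNE2 was 1.35 ± 0.16 in MV4-11 and 0.578 ± 0.069 in THP1, so the more abundant E cyclin RNA differed between the lines. GINS1, a subunit of the 4-part GINS complex, had a log2 ratio of 0.60 (SE 0.21, limma adjusted p = 0.0219), against 0.01 to 0.20 for GINS3 and GINS4 and -0.51 for GINS2.

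Of the nucleotide genes, TYMS (thymidylate synthase) was higher in THP1 by 0.64 (SE 0.18, limma adjusted p = 0.00604) and TK1 (thymidine kinase) by 0.60 (SE 0.17, limma adjusted p = 0.00658) on the log2 scale. The reductase subunits went opposite ways without being called, at 0.34 for RRM1 and -0.58 for RRM2. The ratio of RRM1 to RRM2 was 1.89 ± 0.16 in MV4-11 and 3.63 ± 0.33 in THP1 (DMSO libraries, n = 3). Of the summed TPM of the 39 genes, the nucleotide genes took 10.4% in MV4-11 and 14.5% in THP1, and PCNA alone took 13.9% and 5.04%. These ratios and shares were picked after the values were seen and carry no test.

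The calls of MCM3, CCNE2, PCNA and LIG1 stood with each library left out in turn and after scaling. GINS1 and TYMS lost their call without MV4-11 DMSO replicate 3, THP1 DMSO replicate 1 or THP1 DMSO replicate 2, down to 0.49 and 0.46 on the log2 scale, and GINS1 also with no filter on low values (limma adjusted p = 0.0502). TK1 lost it without MV4-11 DMSO replicate 3 or THP1 DMSO replicate 2 (as low as 0.58) and after scaling (0.58). CDC7 lost it without THP1 DMSO replicate 1 (0.56), and UHRF1 without THP1 DMSO replicate 3 (-0.56). Calls were also gained, all lower in THP1: RRM2 without MV4-11 DMSO replicate 3, THP1 DMSO replicate 1 or THP1 DMSO replicate 2, POLD1 without MV4-11 DMSO replicate 1 or either of those THP1 libraries, and GINS2 without THP1 DMSO replicate 1. The split of 6 higher and 3 lower thus became 3 and 6 without THP1 DMSO replicate 1, 3 and 5 without THP1 DMSO replicate 2, and 3 and 4 without MV4-11 DMSO replicate 3.

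**Figure D1:**
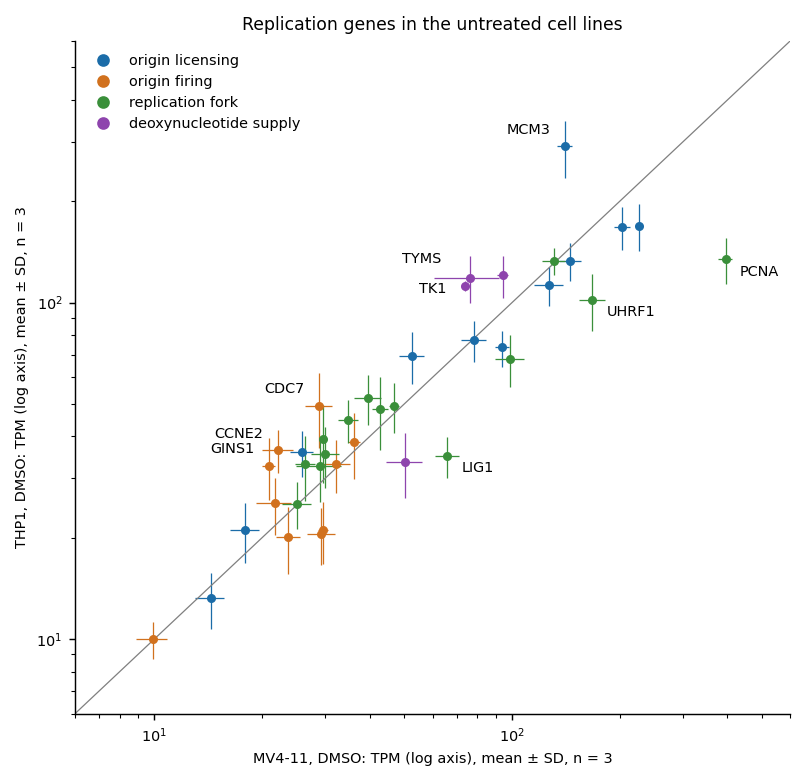
Mean TPM of the 39 genes in the DMSO libraries of MV4-11 (x axis) and THP1 (y axis), both on log axes, with bars of 1 SD (n = 3) and colors for the role of each gene. The 9 named genes were called between the lines: MCM3 lay above the diagonal of equal levels and PCNA below it, at 395 TPM in MV4-11 and 134 TPM in THP1.

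Other genes of the pathway, taken from a list of 46, were called 6 times higher and 7 times lower in THP1. The same rule called 36.9% of all 14117 genes, which is the background for this list and for the 11 genes below. These calls are thus not read as a difference of the pathway. The most extreme were ORC3 (log2 fold change 1.23), the deoxynucleotide hydrolase SAMHD1 (0.89) and the primase subunit PRIM2 (0.82) on the higher side. On the lower side were the ribonucleotide reductase subunit RRM2B (-1.33), the MCM binding protein MCMBP (-1.08) and the CDT1 inhibitor geminin, GMNN (-1.06). Among 11 E2F, RB and CDK inhibitor genes, CDKN2C (2.85), E2F8 (0.79) and E2F7 (0.62) were higher and CDKN1A (-2.57) and CDKN1B (-1.57) lower in THP1.

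The second question was what 8 h of IACS did to these genes in MV4-11. Nearly the whole set leaned down by a small amount: 38 of 39 genes lay below the median change of all genes, ORC2 being the exception, and the set's median was -0.15 (log2 fold change), or -0.21 relative to all genes. Relative medians were -0.23 for licensing, -0.23 for firing, -0.17 for fork and -0.24 for nucleotide genes. No gene of the set was called by limma, nor at an unadjusted p under 0.05 with the same fold, and 0.0148% of all 13542 genes were called.

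The 3 lowest genes were UHRF1 at -0.37 (SE 0.12), TYMS at -0.34 (SE 0.19) and GINS1 at -0.33 (SE 0.18), each with a limma adjusted p of 0.983. The 3 highest were ORC2, an origin-binding subunit, at 0.10 (SE 0.12), CDT1 at 0.02 (SE 0.11) and the clamp loader subunit RFC1 at -0.00 (SE 0.10), and scaling turned CDT1 to -0.05. UHRF1 after scaling stood at 150, 178 and 167 TPM with DMSO and at 124, 124 and 115 TPM at 8 h. PCNA after scaling stood at 373, 399 and 393 TPM with DMSO and at 319.5, 293 and 281 TPM at 8 h. In both, every treated library lay below every DMSO library.

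This held for 23 of 39 genes after scaling, against 12.1% of all genes, and for 8 of 39 as deposited, against 1.65% of all genes. By role the 23 were 6 of 11 licensing, 8 of 10 firing, 7 of 14 fork and 2 of 4 nucleotide genes. IACS 8 h replicate 3 held the lowest share of the 5 noncoding RNAs (39.6%), which raises the TPM of all other genes in it; without it, or without DMSO replicate 3, the count as deposited was 27 and 20 of 39, against 23.7% and 6.81% of all genes. After scaling the count ran from 24 to 30 with a library left out, against 14.7% to 20.3% of all genes. Leaving a library out can only keep or raise a count without overlap, here and below, so such ranges do not test its stability. The part of the noncoding RNAs in these counts was not tested beyond the scaling.

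At 24 h in MV4-11, most of the set lay below the median of all genes, and CDT1 had the highest log2 fold change. The median was -0.17, or -0.24 relative to all genes, and 34 of 39 genes lay below the median of all genes. Licensing genes (-0.31 relative to all genes) and firing genes (-0.28) had lower medians than fork (-0.14) and nucleotide genes (-0.17). No gene of the set was called by limma, also at an unadjusted p under 0.05 with the same fold, and 0.0886% of all 13542 genes were.

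MCM6, the ring subunit with 4 E2F strings in the window above, held 132, 136 and 114 TPM with DMSO and 89.1, 85.6 and 101 TPM at 24 h. All 3 treated libraries lay below the controls, at -0.46 (SE 0.12, limma adjusted p = 0.149) as deposited and -0.55 (limma adjusted p = 0.0359) after scaling. GINS2, a part of the active helicase, held 32.1, 28.9 and 26.9 TPM with DMSO and 19.8, 19.8 and 25.4 TPM at 24 h, a value of -0.42 (SE 0.12, limma adjusted p = 0.214), also with no overlap. TYMS was at -0.37 (SE 0.19, limma adjusted p = 0.470), with groups that overlapped.

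CDT1, the MCM loading factor, held 71.9, 84.8 and 78.1 TPM with DMSO and 107, 110 and 101 TPM at 24 h. The treated libraries all lay above the controls, as deposited and after scaling, and CDT1 was the single gene of the 39 for which this was so. The share of all genes that lay above their controls is not given here, so this count is not read as a result about the set. The log2 fold change of CDT1 was 0.44 (SE 0.11, limma adjusted p = 0.145) as deposited and 0.35 (limma adjusted p = 0.0809) after scaling, neither past the threshold. The next highest genes were the ORC subunits ORC6 at 0.15 (SE 0.14, limma adjusted p = 0.717) and ORC1 at 0.12 (SE 0.11, limma adjusted p = 0.708).

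Every treated library lay below every control for 11 of 39 genes after scaling, against 11.8% of all genes, and for 6 of 39 as deposited, against 5.26% of all genes. By role the 11 were 2 of 11 licensing, 3 of 10 firing, 5 of 14 fork and 1 of 4 nucleotide genes. By adjusted p alone after scaling, 1 gene (MCM6) was lower, against 1.14% of all genes.

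Leaving out IACS 24 h replicate 3 changed these counts most. As deposited the count without overlap was then 25 of 39, against 16.9% of all genes, and 14 without DMSO replicate 3, against 12.2%. Without IACS 24 h replicate 3, and after scaling, 4 genes fell: CDC6, which brings MCM rings to ORC, at -0.59 (limma adjusted p = 0.00549), MCM6 at -0.64 (0.00646), MCM7 at -0.59 (0.00565) and GINS2 at -0.64 (0.00726). In that fit 2.53% of all 13424 genes were called in either direction, 160 higher and 180 lower. By adjusted p alone, 22 genes of the set were lower, against 11.1% of all genes, and CDT1 was higher at 0.36 (limma adjusted p = 0.0422). Non-overlap downward then held for 29 of 39 genes, against 28.6% of all genes. After scaling, IACS 24 h replicate 3 was the highest of its group for 32 of 39 genes, and it was set apart partly by the values of the set. Leaving it out therefore lowers the fold changes of those 32 genes, so these calls and counts are no independent support for a fall. The relative median was -0.34 without replicate 3, and -0.17 and -0.14 without replicates 1 and 2. With any other single library of this comparison left out, no gene was called, also by adjusted p alone, and the scaled count without overlap was 12 to 16, against 13.9% to 16.1% of all genes. As above, a count without overlap can only stay or rise when a library is left out. Why replicate 3 differed was not tested.

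In THP1 at 8 h, CDC6, CCNE2 and RRM2 had the lowest log2 fold changes, and most of the set lay below the median of all genes. The median was -0.23 as deposited and -0.11 relative to all genes, with 38 of 39 genes below the median of all genes and CDT1 above it. Without IACS 8 h replicate 3 the relative median was -0.06, with 28 of 39 genes below. Firing genes had the lowest relative median (-0.19), and licensing (-0.09), fork (-0.11) and nucleotide genes (-0.11) lay closer to the other genes. No gene of the set was called by limma, also at an unadjusted p under 0.05 with the same fold, and 0.0144% of all 13928 genes were.

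The lowest were CDC6 at -0.46 (SE 0.18), CCNE2 at -0.45 (SE 0.16) and RRM2, the S-phase subunit of ribonucleotide reductase, at -0.40 (SE 0.23), each with a limma adjusted p of 0.941. The highest were CDT1 at 0.04 (SE 0.18, limma adjusted p = 0.964), the polymerase delta subunit POLD1 at -0.14 (SE 0.19) and MCM2 at -0.14 (SE 0.16). POLD1 and MCM2 turned to 0.01 after scaling. CDC6 held 41.2, 36.3 and 30.2 TPM with DMSO and 24.7, 33.0 and 20.8 TPM at 8 h, which overlapped. After scaling it stood at 35.4, 33.9 and 34.6 against 27.5, 29.6 and 26.2 TPM, which did not.

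Every treated library lay below every control for 6 of 39 genes after scaling, against 5.52% of all genes, and for 0 of 39 as deposited, against 4.06%. The 6 were 1 licensing, 3 firing, 1 fork and 1 nucleotide gene. The scaled count was 13 without DMSO replicate 3, 18 without IACS 8 h replicate 1 and 11 without IACS 8 h replicate 2, against 13.7%, 9.97% and 10.4% of all genes. As deposited, leaving out DMSO replicate 3 gave 21 genes, against 27.0% of all genes, and leaving out IACS 8 h replicate 2 gave 14, against 31.1%, a share near that of the set. Without replicate 3 of each THP1 group the scaled count was 13, against 18.5% of all genes, and the relative median was then -0.07 after scaling.

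In THP1 at 24 h, most of the set lay below the median of all genes, with DNA polymerase alpha (POLA1), UHRF1 and GINS4 lowest and DBF4, the activating subunit of the CDC7 kinase, highest. The median was -0.37 as deposited and -0.25 relative to all genes, and 36 of 39 genes lay below the median of all genes. Relative medians were -0.32 for firing, -0.24 for fork, -0.24 for nucleotide and -0.19 for licensing genes. No gene was called by limma, and 0.0431% of all 13928 genes were; at an unadjusted p under 0.05 with the same fold, 1 gene (POLA1) was.

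POLA1, the catalytic subunit that starts each Okazaki fragment, held 39.3, 33.7 and 25.0 TPM with DMSO and 21.6, 24.5 and 17.2 TPM at 24 h. The log2 fold change was -0.60 (SE 0.22, limma adjusted p = 0.529) as deposited and -0.46 (limma adjusted p = 0.0318) after scaling, where the levels were 33.8, 31.5 and 28.7 against 22.6, 23.0 and 21.7 TPM. UHRF1 was at -0.55 (SE 0.23, limma adjusted p = 0.552) and GINS4 at -0.53 (SE 0.20, limma adjusted p = 0.538). At the other end were DBF4 at 0.01 (SE 0.23, limma adjusted p = 0.987), the primase subunit PRIM1 at -0.07 (SE 0.21, limma adjusted p = 0.936) and CDT1 at -0.09 (SE 0.18, limma adjusted p = 0.896). After scaling DBF4 was at 0.15, PRIM1 at 0.07 and CDT1 at 0.05, so the direction of PRIM1 and CDT1 turned with the scaling.

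Every treated library lay below every control for 26 of 39 genes after scaling, against 13.7% of all genes, and for 14 of 39 as deposited, against 10.2%. By role the 26 were 8 of 11 licensing, 8 of 10 firing, 7 of 14 fork and 3 of 4 nucleotide genes. With a library left out the scaled count was 26 to 33, against 15.8% to 21.0% of all genes, and without replicate 3 of each group it was 34, against 25.9% of all genes. None of these counts could have been lower than the 26 of all libraries. As deposited, leaving out DMSO replicate 3 gave 36 genes, against 43.96% of all genes, and leaving out IACS 24 h replicate 2 gave 23, against 24.6%.

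The replicates are described as independent, and the sources do not say that their numbers pair libraries. Same-numbered THP1 DMSO and 24 h libraries deviated together, with r over 0.1 in each of the 3 pairs (0.146 to 0.324 as deposited). The replicate number was tried as a block in all 9 THP1 libraries, although r for DMSO with 8 h was as low as 0.0462. Results with this block rest on a pairing that the labels do not give. With it, POLA1 fell by 0.60 on the log2 scale and was the single gene of the set called (limma adjusted p = 0.0101). By adjusted p alone, 25 genes were lower, against 11.1% of all genes, among them UHRF1 (limma adjusted p = 0.00427) and GINS4 (0.0127). With block and scaling 18 were, against 7.42% of all genes, namely 4 licensing, 6 firing, 6 fork and 2 nucleotide genes, and with scaling and no block 6 were, against 1.76%. None was higher in these 3 fits.

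The count of 18 changed with a library left out, to 12, 6 and 3 without DMSO replicates 1, 2 and 3. It was 0, 8 and 17 without IACS 24 h replicates 1, 2 and 3. It was 0 without replicate 3 of each group, where 2 replicate numbers were left. As deposited and without those 3 libraries, MCM3 was called lower. Shares of all genes are not given for these fits, so a loss of calls in the set is not set apart from a loss over all genes. The calls of POLA1 with the block or by unadjusted p, and that of MCM3, also lack such a share. Neither these calls nor the counts with libraries left out are read as results about the set. Without those 3 libraries the relative median was -0.27 as deposited and -0.25 after scaling.

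**Figure D2:**
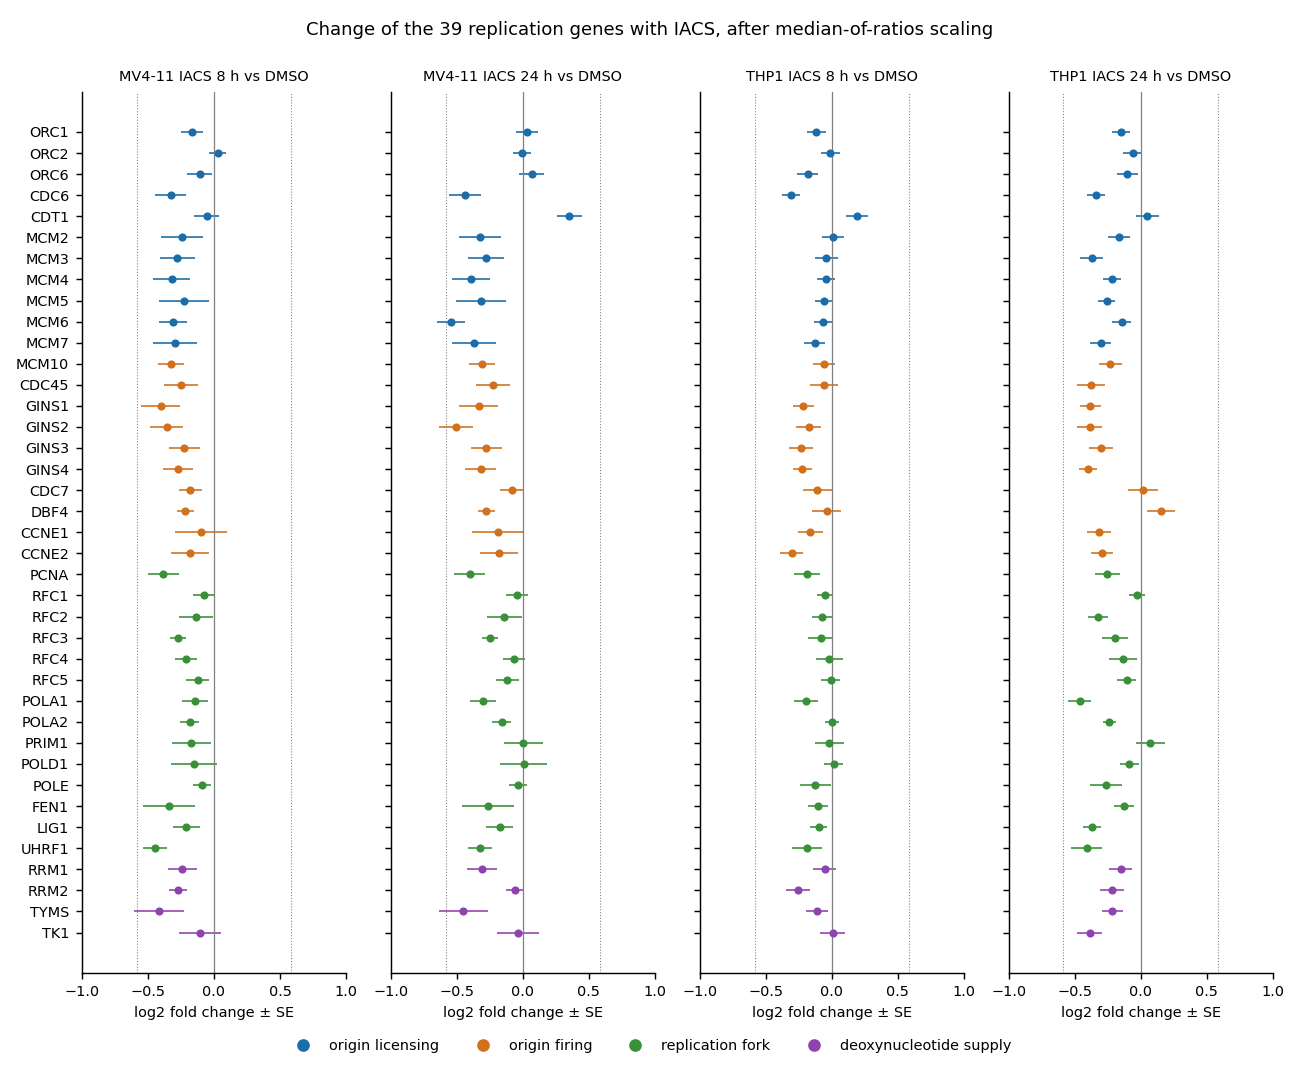
Log2 fold change of each of the 39 genes with IACS against DMSO after median-of-ratios scaling (x axis; points with bars of 1 SE), in MV4-11 and THP1 at 8 h and 24 h, with rows in the order of the roles. Dotted lines mark the 1.5-fold threshold; most points lie to the left of 0 and none passes a dotted line, with CDT1 at 0.35 in MV4-11 at 24 h as the point farthest to the right.

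Between 8 h and 24 h no gene of the set was called in either line, with or without the replicate block. In MV4-11 the set's median was 0.02, or 0.00 relative to all genes, with 19 of 39 genes below the median of all genes and 0% of all 13542 genes called. Without IACS 24 h replicate 3 the MV4-11 median was -0.08, or -0.11 relative to all genes. In THP1 it was -0.11, also -0.11 relative to all genes, with 32 of 39 genes below and 0.00718% of all genes called. At an unadjusted p under 0.05 with the same fold, limma gave no gene of the set in either line.

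TK1, which salvages thymidine, was the lowest of these in THP1. It held 104, 114 and 87.7 TPM at 8 h and 77.8, 91.6 and 65.1 TPM at 24 h, a log2 ratio of -0.38 (SE 0.15, limma adjusted p = 0.863). With the replicate block, a pairing that the labels do not give, the limma adjusted p was 0.0466. No share of all genes is given for that fit, and TK1 was picked after its values were seen. The change was smaller than the fold threshold. After scaling TK1 stood at 116, 102 and 110 TPM at 8 h and at 81.1, 85.9 and 82.4 TPM at 24 h, which did not overlap. In MV4-11 the same gene after scaling stood at 67.4, 62.0 and 72.6 TPM at 8 h and 60.5, 61.1 and 94.6 TPM at 24 h, with replicate 3 far above the rest.

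CDC6 in MV4-11 and PCNA in THP1 are given at both times, which share the DMSO libraries of the line. CDC6 after scaling stood at 25.9, 25.3 and 24.8 TPM in MV4-11 with DMSO, 21.6, 19.2 and 19.2 TPM at 8 h and 16.0, 17.0 and 22.9 TPM at 24 h. PCNA in THP1 after scaling stood at 133, 127 and 129 TPM with DMSO, 122, 104 and 115 TPM at 8 h and 109, 95.5 and 124 TPM at 24 h, so the gap between the nearest libraries was small. These genes were picked after their values were seen.

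**Figure D3:**
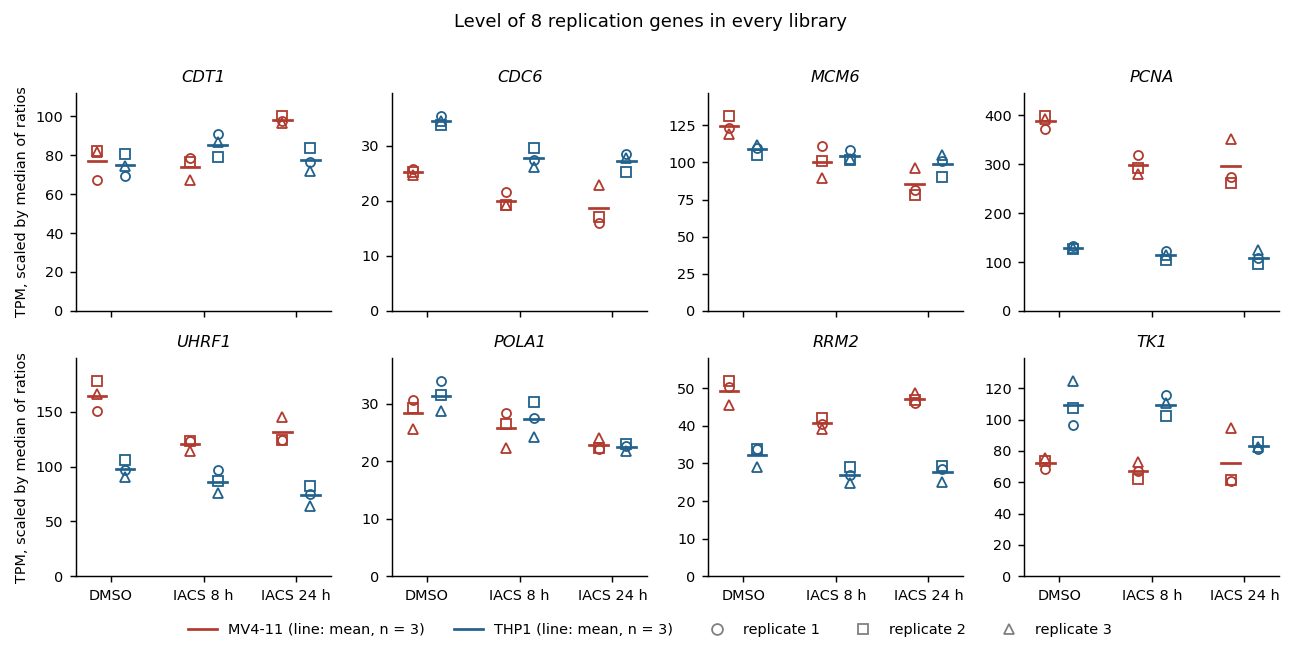
TPM after median-of-ratios scaling (y axis, from 0) of 8 genes in every library by treatment (x axis), with MV4-11 in red, THP1 in blue, a symbol for each replicate and a line at the mean (n = 3). CDT1 in MV4-11 lies above its DMSO libraries at 24 h, between 96.5 and 100.1, while CDC6 and PCNA lie below theirs; replicate 3 at 24 h (triangle) stands above the other MV4-11 replicates for CDC6, MCM6, PCNA, UHRF1 and TK1.

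Summed over all 39 genes after scaling, the set held 2682 to 2868 TPM in MV4-11 with DMSO, 2197 to 2460 at 8 h, and 2104, 2163 and 2793 at 24 h. Replicates 1 and 2 at 24 h thus lay below all 8 h libraries, and replicate 3 lay among the controls. In THP1 the sums were 2518 to 2618 with DMSO, 2302 to 2575 at 8 h, which overlapped, and 2120 to 2246 at 24 h, which did not.

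**Figure D4:**
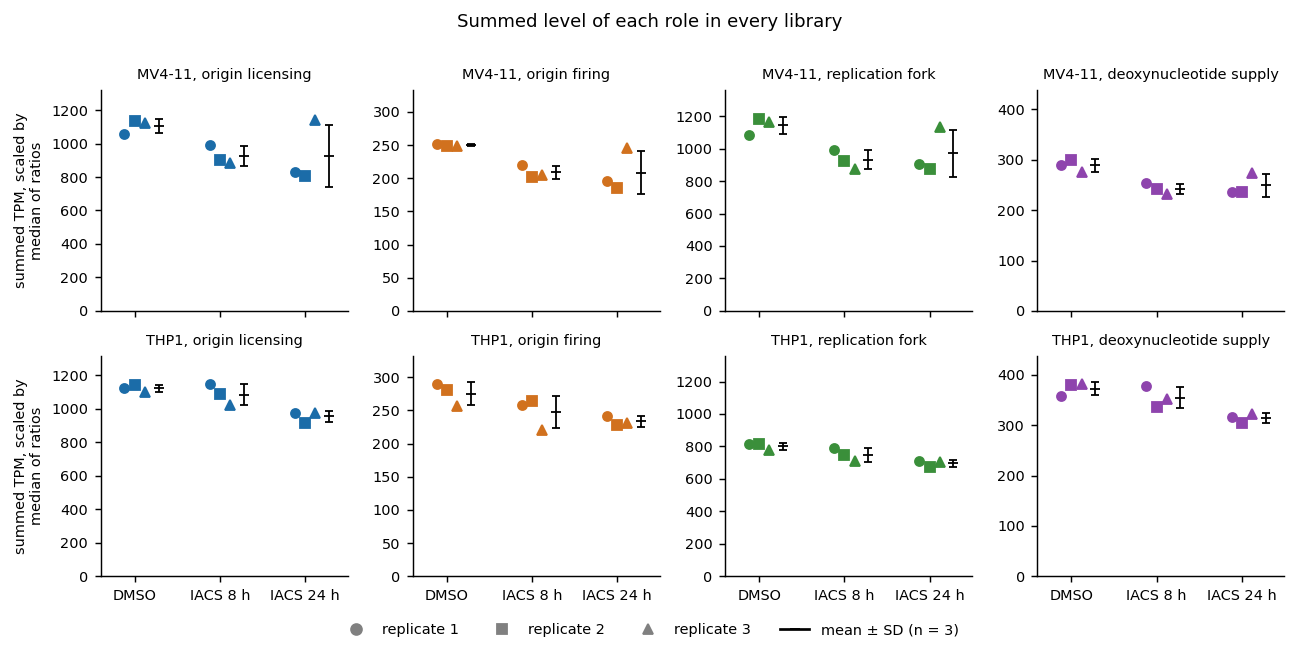
Summed TPM of the genes of each role after median-of-ratios scaling (y axis, from 0) in every library, for MV4-11 (upper row) and THP1 (lower row), with a symbol for each replicate and a bar at mean ± SD (n = 3). In MV4-11 at 24 h, replicate 3 (triangle) stands above the others in each role, for licensing at 1138 against 809 and 829.

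CDT1 was also set against genes that act with it, as ratios within a library, which no scaling changes. These were picked after the values were seen and carry no test. The ratio of CDT1 to GMNN, its inhibitor, was 2.59 ± 0.32 with DMSO, 3.27 ± 0.30 at 8 h and 4.50 ± 0.68 at 24 h in MV4-11 (mean ± SD, n = 3). In THP1 it was 5.47 ± 0.31, 7.16 ± 0.48 and 6.68 ± 0.95. The ratio of CDT1 to CDC6 was 3.05 ± 0.38, 3.71 ± 0.25 and 5.41 ± 1.05 in MV4-11, and 2.16 ± 0.21, 3.09 ± 0.36 and 2.87 ± 0.40 in THP1. The DMSO libraries lay below both treated groups in each of these, save for CDT1 to GMNN at 8 h in MV4-11, where the nearest libraries stood at 2.94 (DMSO) and 2.93. The ratio of RRM1 to RRM2 stayed apart between the lines at each time, with THP1 above MV4-11, and overlapped between treatments within each line.

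**Figure D5:**
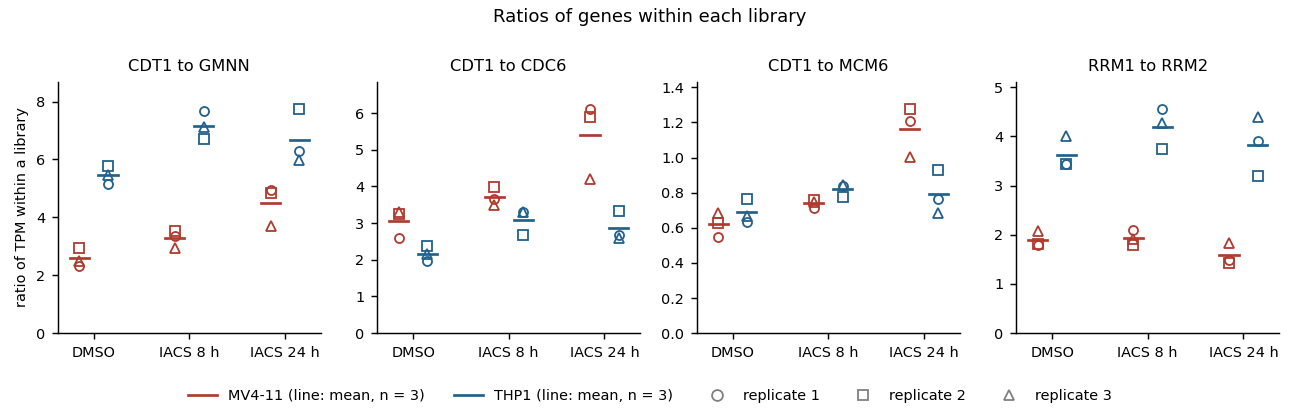
Ratios of TPM within each library (y axis, from 0) for 4 pairs of genes by treatment (x axis), with MV4-11 in red, THP1 in blue, a symbol for each replicate and a line at the mean (n = 3). CDT1 to CDC6 stands above the DMSO libraries at both times in both lines, in MV4-11 at 24 h at 6.12, 5.89 and 4.20.

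Whether the lines differed in their change with IACS was tested as the difference of the changes in the fit of all 18 libraries. No gene of the set was called at 8 h or at 24 h by limma, nor at an unadjusted p under 0.05 with the same fold, and 0.00708% of all 14117 genes were called at each time. The most extreme genes at 24 h were TK1 at -0.57 (SE 0.24) and CDT1 at -0.53 (SE 0.21), lower in THP1 than in MV4-11, both with a limma adjusted p of 0.687. Without MV4-11 IACS 24 h replicate 3, TK1 was at -0.39 (SE 0.22) and CDT1 at -0.56 (SE 0.23), both with a limma adjusted p of 0.660. After scaling and without that library TK1 was at -0.14 (SE 0.13, limma adjusted p = 0.597). At 8 h it was CCNE2 at -0.34 (SE 0.23, limma adjusted p = 0.910). The higher CDT1 of MV4-11 at 24 h is thus not shown to be particular to that line.

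The 46 other genes of the pathway leaned the same way as the 39, and none was called in a comparison with DMSO. Their medians relative to all genes were -0.19 and -0.16 in MV4-11 and -0.11 and -0.19 in THP1 (8 h and 24 h), with 41, 39, 36 and 39 of 46 below the median of all genes. The 11 E2F, RB and CDK inhibitor genes had relative medians of -0.17, -0.09, -0.08 and -0.13. GMNN itself was at -0.34 (SE 0.13, limma adjusted p = 0.317) in MV4-11 and -0.34 (SE 0.17, limma adjusted p = 0.578) in THP1 at 24 h.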

How the data were processed

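RNA from 18 libraries of MV4-11 and THP1 cells was compared. The authors mapped 100-bp reads to GRCh38 and deposited TPM per gene symbol, made with CLC Genomics Workbench 20; the annotation release and the use of strand are not given in the sources used here. TPM keep no counts, so precision rests on 3 replicates a group and read numbers are estimates: 81.5% to 83.7% of the low values came out whole (tolerance 0.05). Genes whose mean in a fit reached 1 TPM were tested with limma 3.58.1 in R 4.3.3 (trend) on log2(TPM + 1), two-sided, in 9 libraries of a line (13542 genes in MV4-11, 13928 in THP1) or all 18 (14117 genes). Fold changes on this scale understate those of low genes. The members, lists and tests were chosen with earlier results of these data known. Named genes were those called, the 3 highest and 3 lowest per comparison with DMSO, and others said to be picked afterwards. Alternatives were scaling by the median of ratios, a replicate block, other pseudocounts and filters, and leaving out libraries. Same-numbered libraries correlated in their deviations in all 3 pairs for THP1 DMSO and 24 h (r = 0.146 to 0.324), as for THP1 8 h and 24 h (0.194 to 0.355) and for MV4-11 8 h and 24 h (0.112 to 0.435 as deposited, 0.0952 to 0.429 after scaling), and not in all pairs for MV4-11 DMSO with either time or THP1 DMSO with 8 h. The fits were also run on simulated libraries, with planted changes larger than the medians of the set with IACS and with genes drawn independently. That run does not bear on small changes or on shifts of whole libraries. P-values measure the spread between these libraries.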

Additional observations from a re-analysis of the deposited data

How the results depend on the processing

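No gene of the set was called in a comparison of IACS with DMSO under most alternatives, and the exceptions follow. With the replicate block, or with unadjusted p-values, 1 gene (POLA1) was called in THP1 at 24 h, and as deposited without replicate 3 of each group MCM3 was. By adjusted p alone, an alternative chosen after seeing the data, MV4-11 at 24 h gave 1 gene after scaling and 4 with block and scaling, and THP1 at 24 h gave 6 after scaling, 25 with the block and 18 with both. THP1 24 h against 8 h gave 1 after scaling, 1 with the block and 6 with both. The untreated lines gave 14 (8 higher, 6 lower), and 24 after scaling (13 higher, 11 lower). The share of all genes by adjusted p alone is not given for them. The 36.9% of all genes called between the untreated lines as deposited is by the stricter rule with the fold threshold. The difference of the lines at 24 h gave 1 with block and scaling. Leaving out a library after scaling gave 0 to 4 genes called and 0 to 23 by adjusted p alone in MV4-11 at 24 h, and 0 to 3 by adjusted p alone in THP1 at 24 h; calls between the untreated lines ran from 7 to 10. Counts of this paragraph for which no share of all genes is given, here or above, are not read as results about the set. The block changed no other count of calls by the full rule. No called value reversed. Of values that were not called, scaling, with or without the block, turned CDT1 in MV4-11 at 8 h to -0.054, POLD1 and MCM2 in THP1 at 8 h to 0.013 and 0.0094, and PRIM1 and CDT1 in THP1 at 24 h to 0.073 and 0.050. Leaving out the 5 noncoding RNAs turned the last pair to 0.077 and 0.054. With a library left out, values spanned 0 for CDT1 (-0.039 to 0.078) and RFC1 (-0.055 to 0.030) in MV4-11 at 8 h, CDT1 (-0.076 to 0.14) and POLD1 (-0.29 to 0.026) in THP1 at 8 h, and DBF4 (-0.18 to 0.16), PRIM1 (-0.24 to 0.11) and CDT1 (-0.24 to 0.078) in THP1 at 24 h. The set's median between the untreated lines went from 0.06 to -0.03 without THP1 DMSO replicate 1. By rule a change smaller than 1.5-fold was not called, and the medians of the set with IACS were smaller. Of the values for roles and for genes named by rule, with left-out libraries entered by their lowest and highest value alone, 544 kept their side of the threshold or, for roles, moved by less than the spread between replicates, 19 values of single genes turned as above, 7 calls were lost, 1 was gained and 3 moved by more than that spread. The causes of these differences were not tested.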
